A study of Mus musculus with 10 samples.

Results

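The Krüppel-like factors (KLFs) are described here by 10 genes, Klf2, Klf3, Klf4, Klf5, Klf6, Klf7, Klf9, Klf10, Klf13 and Klf16, out of 55487 genes in the expression tables. They were chosen by symbol, and each symbol matched 1 Ensembl mouse gene. The series holds 10 samples of E14, a mouse embryonic stem cell line, most of them maps of R-loops made with MapR or BisMapR, and 3 of them RNA-seq replicates. The other 7 samples are not used here. All values below come from the RNA-seq group: E14 cells with no genetic change named in the labels, in DMEM with 15% fetal bovine serum, HEPES, GlutaMAX, non-essential amino acids, penicillin-streptomycin, LIF, an inhibitor of GSK at 3 µM and an inhibitor of MEK1/2 at 1 µM. Ribosomal RNA was removed from total RNA before directional library preparation. There is no other expression group, so levels are compared between genes within the libraries, with the spread over 3 replicates as the error. Nothing in the labels says that the replicates came from separate cultures, so this spread may be technical.

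KLF proteins share a block of zinc fingers at the carboxyl end that binds GC-rich DNA, chiefly GC boxes and CACCC boxes, and they differ in the rest of the protein, which recruits activators or repressors. In mouse embryonic stem cells KLF2, KLF4 and KLF5 support self-renewal and share many binding sites with NANOG, SOX2 and OCT4 (the product of Pou5f1). LIF acts on Klf4 through STAT3. KLF3 recruits the corepressor CtBP, and KLF9, KLF10, KLF13 and KLF16 can recruit the corepressor SIN3A.

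Because KLF proteins bind the promoters of other KLF genes, the promoter windows of the members are given before their levels. RefSeq windows of 300 bases (GRCm38.p6, from 250 before to 50 after the annotated start) matched 7 of the 10 genes: Klf2, Klf3, Klf4, Klf6, Klf7, Klf9 and Klf13. Klf5, Klf10 and Klf16 had no entry. The 3 stretches below end before the first annotated exon and are shown for the highest member, for the member on the LIF route and for the window with the STAT-type match. Capitals mark matches to the GC box GGGCGG and the CACCC box CACCC, on either strand, and in Klf9 also TTCNNNGAA, a spacing of bases bound by STAT proteins. The first is chr8:72318812-72319032 (plus strand), the second chr4:55532476-55532725 (minus strand) and the third chr19:23140976-23141225 (plus strand), each written 5′ to 3′ on the gene's strand.
Klf2: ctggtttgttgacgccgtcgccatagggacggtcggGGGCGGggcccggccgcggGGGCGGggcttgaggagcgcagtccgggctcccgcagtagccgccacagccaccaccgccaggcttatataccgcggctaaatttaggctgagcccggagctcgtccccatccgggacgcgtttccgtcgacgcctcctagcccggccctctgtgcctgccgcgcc
Klf4: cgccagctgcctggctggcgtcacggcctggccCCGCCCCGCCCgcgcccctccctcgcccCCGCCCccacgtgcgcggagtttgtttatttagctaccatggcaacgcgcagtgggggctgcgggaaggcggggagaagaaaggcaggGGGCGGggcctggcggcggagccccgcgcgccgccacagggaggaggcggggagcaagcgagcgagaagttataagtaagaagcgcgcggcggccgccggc
Klf9: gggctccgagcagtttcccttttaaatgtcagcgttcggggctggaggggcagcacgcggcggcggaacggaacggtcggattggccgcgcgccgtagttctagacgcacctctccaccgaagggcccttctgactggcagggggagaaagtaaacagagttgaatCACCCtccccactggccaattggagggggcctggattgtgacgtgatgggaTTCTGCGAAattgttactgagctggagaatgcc

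The Klf4 stretch holds 4 GC boxes and no CACCC box, and the Klf2 stretch 2 GC boxes and no CACCC box. In contrast, the Klf9 stretch holds 1 CACCC box and no GC box. Over the whole windows, GGGCGG was present in 6 of the 7 genes, against 35.66% of 32851 RefSeq windows of the same length. The CACCC box was present in 5 of the 7 (57.52% of all windows). The longer form GGGNGTGG, which contains the reverse complement of CACCC where N is T or G, was present in 2 (17.62%). Klf3 had the most of both boxes, with 6 matches to GGGCGG and 5 to CACCC. TTCNNNGAA was found in the Klf9 window alone among the 7 (8.3% of all windows), and TATAAA in none (13.62%). CCAAT was present in 3 of the 7, with 4 matches in Klf6, 3 in Klf9 and 2 in Klf13 (37.41% of all windows). GC content lay between 58.33% in Klf7 and 76.67% in Klf3, against a median of 52.67% over all windows. The shares over all windows were not matched for GC content, so the higher share with GGGCGG cannot be told apart from it. Of the 250 upstream bases, the stretch free of annotated exons on either strand, counted from the far end, was 0 in Klf3 and 148 in Klf7. In the other matched genes it was 221 or more. The Klf7 window (chromosome 1, 64121340 to 64121639) lies inside the annotated gene, which begins at 64122282 on the minus strand. Its values therefore belong to a start inside the gene. These are matches of letters, and binding was not measured in the RNA-seq data.

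Klf2, Klf5 and Klf10 were the most abundant members, and Klf7 the least. All 10 genes had a mean TPM of at least 1, from 1.58 to 31.2. TPM is a transcript abundance that takes account of length and is scaled so that all libraries sum alike. The same limit, above which a gene is called expressed here, was reached by 19.8% of all genes and by 44.2% of the 21897 protein-coding genes. The members were chosen with earlier results of these data known, so their number above the limit is a description. Their median log2(TPM + 1) was 3.88 ± 0.41 (SD, n = 3), beside 2.72 ± 0.29 (SD, n = 3) over the 9680 protein-coding genes that reached the limit and 0 over all genes. Very short RNAs (below 100 nt of effective length) took up 63.3% ± 2.78 (SD, n = 3) of TPM, and a scale without them gives every member a higher value, 84.3 instead of 31.2 for Klf2 and 4.38 instead of 1.58 for Klf7. Replicates 1, 2 and 3 had totals of 11420425, 6467405 and 5787357 estimated counts. The smallest count of any member, 100 for Klf7 in replicate 3, has an exact Poisson 95% interval of 81.4 to 121.6. Intervals here cover counting error alone.

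Of the members known from the naive pluripotency network, Klf2 and Klf5 had the highest means of the family and Klf4 came after Klf10. Klf2 (ENSMUSG00000055148, chromosome 8, 72319033 to 72321656, plus strand) had 42.84, 30.64 and 20.04 TPM in replicates 1, 2 and 3, from 1986, 989 and 652 counts. Its mean was 31.2 ± 11.4 TPM (SD, n = 3), above that of 90.63% of expressed protein-coding genes. Klf2 is a compact gene with 1 annotated transcript of 3 exons. Klf5 (ENSMUSG00000005148, chromosome 14, 99298691 to 99315036, plus strand), which in the embryo is needed for the trophectoderm and the inner cell mass, had 38.35, 27.99 and 17.4 TPM from 3261, 1668 and 1034 counts. Klf5 therefore had the most counts of the family, while Klf2, with a transcript of 1847 nt against about 3274.3 nt for Klf5, ranked above it per length in each replicate. Klf4 (ENSMUSG00000003032, chromosome 4, 55527143 to 55532466, minus strand), one of the classical reprogramming factors, had 22.14, 14.73 and 13.04 TPM from 1674, 806 and 562 counts. Its mean of 16.6 ± 4.84 TPM (SD, n = 3) was below those of Klf2, Klf5 and Klf10.

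Within a library, count ratios between these genes do not depend on how libraries are scaled. The Klf5 to Klf4 count ratio was 1.948, 2.0695 and 1.8399 in replicates 1, 2 and 3, with a mean of 1.95 ± 0.11 (SD, n = 3). The ratio of Klf5 to Klf2 counts was 1.64 ± 0.05 (SD, n = 3), and that of Klf2 to Klf4 counts 1.19 ± 0.03 (SD, n = 3). In TPM, which also carries the estimated lengths, the Klf5 to Klf4 ratio was 1.73, 1.90 and 1.33 and the Klf2 to Klf4 ratio 1.94, 2.08 and 1.54, both lowest in replicate 3. The Klf5 to Klf2 ratio in TPM was 0.89 ± 0.02 (SD, n = 3). Among ratios with other members, that of Klf10 to Klf2 counts was 0.807, 0.913 and 0.859. The Klf9 to Klf5 count ratio went from 0.675 and 0.698 in replicates 1 and 2 to 0.887 in replicate 3.

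The median log2(TPM + 1) of Klf2, Klf4 and Klf5 exceeded that of the other 7 members by 1.47 ± 0.18 (SD, n = 3). The difference was 1.48, 1.65 and 1.29 in replicates 1, 2 and 3, so it had the same sign in 3 of 3. An exact two-sided sign-flip test over 3 replicates cannot give a p below 0.25, and none is given. These 3 genes held 50.3% ± 1.17 (SD, n = 3) of the summed TPM of the 10 members. Their share of the members' counts was 48.9%, with a 95% interval (Wilson) of 48.1 to 49.8, in the first replicate. It was 46.8% (45.6 to 47.9) in the second and 45.4% (44.02 to 46.8) in the third.

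Among members that recruit SIN3A, Klf10 and Klf9 were above Klf13 and Klf16 in every replicate. Klf10 (ENSMUSG00000037465, chromosome 15, 38291463 to 38300706, minus strand), an early response gene of TGF-β signalling, had 34.05, 25.45 and 18.11 TPM from 1602, 903 and 560 counts. It overlapped Klf5 in level, being below it in replicates 1 and 2 and above it in replicate 3. Klf9 (ENSMUSG00000033863, chromosome 19, 23141226 to 23168134, plus strand), a gene induced by thyroid and glucocorticoid hormones in other tissues, had 19.3, 14.23 and 11.49 TPM from 2202, 1165 and 917 counts. By mean count it ranked 2 in the family and by mean TPM 5, since its length was about 4380 nt. Klf13 (ENSMUSG00000052040, chromosome 7, 63886351 to 63938915, minus strand), known from T cells and the heart, had 7.09, 5.39 and 3.29 TPM from 902, 524 and 288 counts. Klf16 (ENSMUSG00000035397, chromosome 10, 80567124 to 80577321, minus strand) had 4.9, 3.94 and 2.88 TPM from 337, 189 and 139 counts. Klf13 was above Klf16 in every replicate.

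The remaining members spanned the range from Klf3 to Klf7. Klf3 (ENSMUSG00000029178, chromosome 5, 64803388 to 64832901, plus strand), the CtBP-dependent repressor, had 17.6, 13.35 and 6.51 TPM from 1184, 619 and 401 counts. Klf6 (ENSMUSG00000000078, chromosome 13, 5861482 to 5870394, plus strand), a broadly expressed activator, had 13.07, 8.25 and 8.69 TPM from 731, 406 and 298 counts. Klf6 was below Klf3 in replicates 1 and 2 and above it in replicate 3. Klf7 (ENSMUSG00000025959, chromosome 1, 64029447 to 64122282, minus strand), which has a known part in the development of neurons, had 1.34, 2.17 and 1.23 TPM from 261, 136 and 100 counts. It was the lowest member in each replicate.

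**Figure D1:**
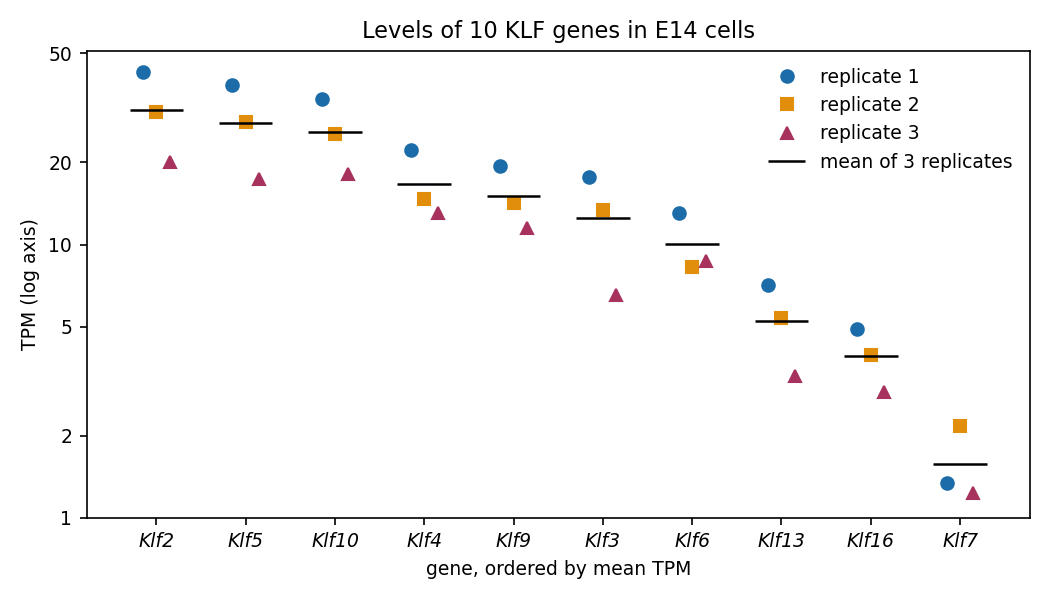
TPM of the 10 KLF genes (vertical log axis) in RNA-seq replicates 1, 2 and 3 (circle, square and triangle), with a bar at each gene's mean of 3, genes ordered by that mean. Means run from 31.2 TPM for Klf2 to 1.58 TPM for Klf7, and replicate 3 is the lowest point for 9 of the 10 genes.

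In the order of mean TPM (Klf2, Klf5, Klf10, Klf4, Klf9, Klf3, Klf6, Klf13, Klf16, Klf7), 7 of the 9 neighbouring pairs were ordered alike in every replicate. Klf5 and Klf10 were not, with a mean difference of 0.08 ± 0.12 (SD, n = 3) in log2(TPM + 1), nor were Klf3 and Klf6, at 0.22 ± 0.52 (SD, n = 3). Klf9 exceeded Klf3 in each replicate, but the mean difference of 0.32 was smaller than its SD of 0.36. Without replicate 3, all 9 pairs were ordered alike in both remaining libraries. Over the 3 replicates, the other 6 pairs differed by more than the SD of the difference. The smallest of these 6 differences were those of Klf4 over Klf9, 0.13 ± 0.08 (SD, n = 3), and of Klf2 over Klf5, 0.16 ± 0.03 (SD, n = 3). Klf16 and Klf7 lay farthest apart, at 0.92 ± 0.36 (SD, n = 3).

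The gene lengths of the tables moved with part of this spread. A gene with several transcripts gets a length averaged over them by their estimated abundance, so it can differ between libraries. For Klf7 that length was 7302.11, 3452.64 and 4409.43 nt in replicates 1, 2 and 3, and its TPM was highest where the length was shortest. The Klf7 counts scaled to the library (below) were instead highest in replicate 1. The longest and shortest length differed by over 1.2 times in 4 of the 8 members with more than 1 transcript, namely Klf7, Klf6, Klf3 and Klf4, beside 27.6% of the 9229 expressed genes with more than 1 transcript. For Klf3 the length was 2618.37, 2588.84 and 3378.87 nt, longest in replicate 3. With each length fixed at its mean over the replicates, an alternative chosen after seeing the data, Klf3 had 16.01, 11.92 and 7.74 TPM and Klf6 12.5, 9.89 and 7.27 TPM, so Klf3 was above Klf6 in each replicate. Klf5 was then also above Klf10 in 3 of 3 replicates, and Klf4 above Klf9 in 2 of 3. Fixed lengths gave Klf7 1.956, 1.449 and 1.071 TPM. The coefficient of variation (CV, SD over mean) of Klf3 was 44.8% as deposited and 34.8% with fixed length, while that of Klf4 was 29.1% and 36.3%.

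**Figure D2:**
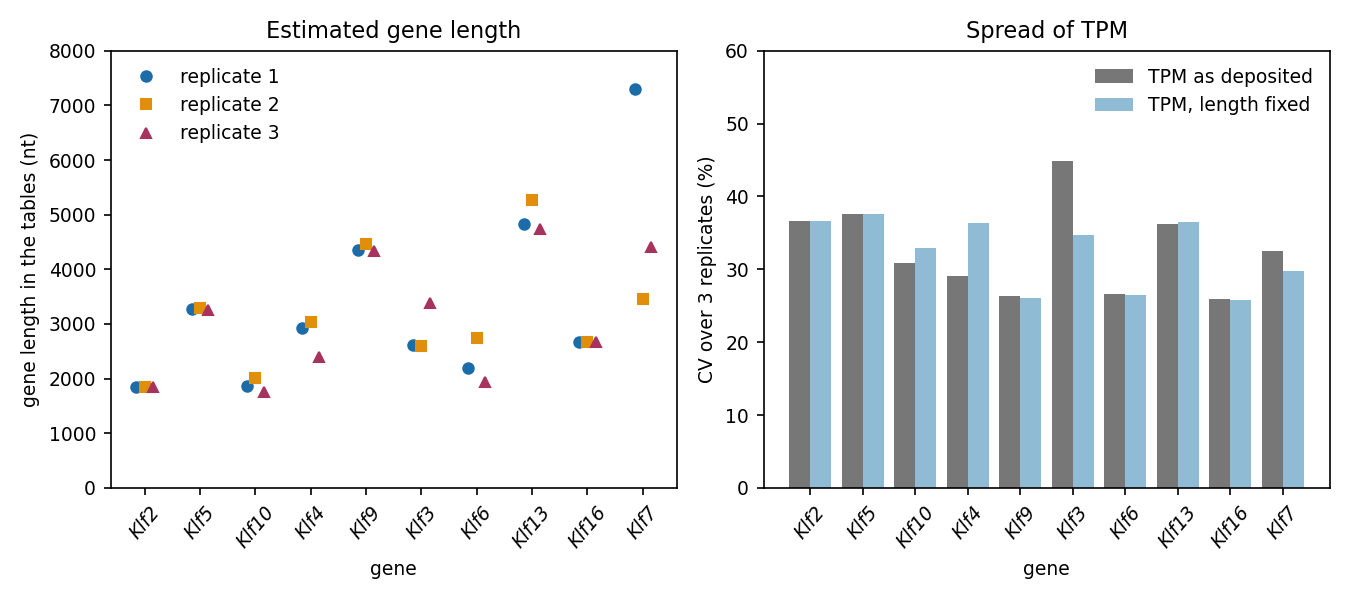
Left, the gene length in the tables (nt) for each KLF gene and replicate; right, the CV of TPM over 3 replicates (%) with lengths as deposited (grey) and fixed at the mean (blue). Klf7 spans 3452.64 to 7302.11 nt, Klf2 and Klf16 have 1 transcript and 1 length, and the CV of Klf3 is 44.8% as deposited and 34.8% with fixed length.

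Between replicates, all 10 members were lowest in replicate 3. This replicate was singled out because earlier results of these data had set it apart. The measure was CPM, a count relative to the library total, scaled by TMM, which corrects for library composition; it leaves length out. Over the 12577 genes tested, 40.4% were lowest in replicate 3. Klf5 had 273.2, 251.3 and 194.8 TMM-scaled CPM in replicates 1, 2 and 3, and Klf13 had 75.6, 79.0 and 54.3. For Klf9 the values were 184.5, 175.6 and 172.7, with the smallest gap of the 10. On the log2 scale, replicate 3 minus the mean of replicates 1 and 2 lay between -0.51 for Klf13 and -0.06 for Klf9, with a median of -0.33 over the members and 0.00 over all genes tested. Replicate 1 was highest for 7 members, against 33.6% of all genes tested. After the length correction described below it was highest for 5 members, against 32.7% of all genes tested. In TPM, 9 of the 10 were lowest in replicate 3, with Klf6 the exception, beside 75.6% of the 11000 genes with a mean TPM of at least 1.

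**Figure D3:**
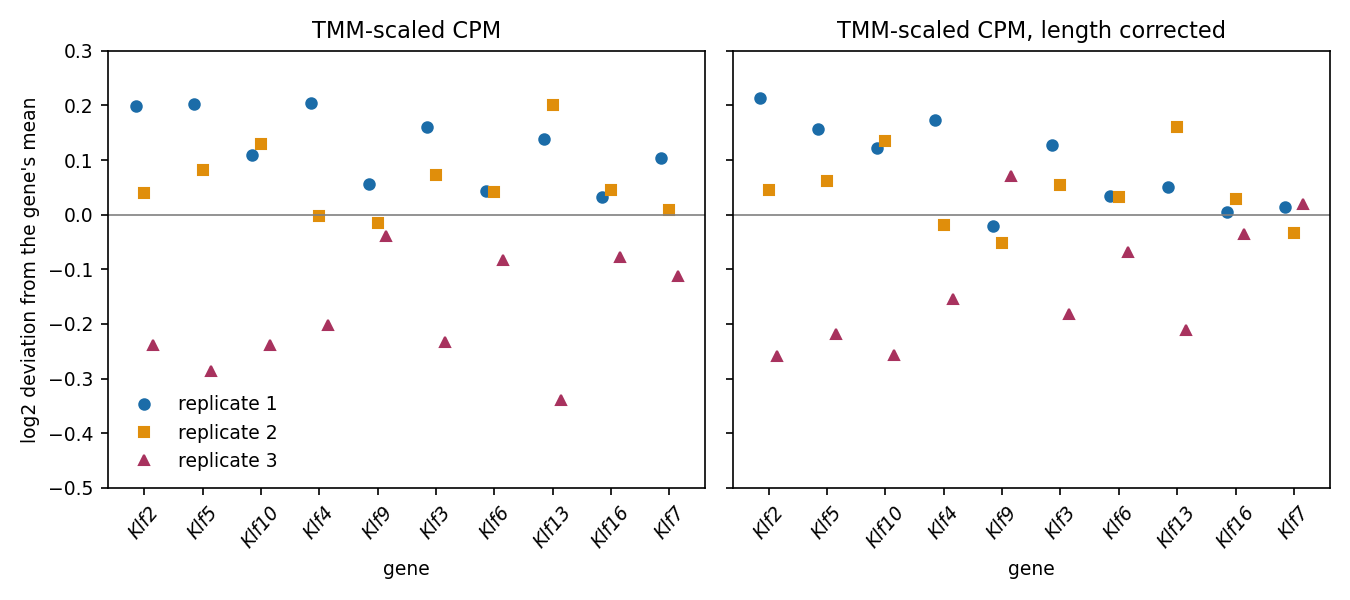
Log2 deviation of TMM-scaled CPM from each gene's mean over 3 replicates, by gene and replicate, before (left) and after (right) a correction for gene length. Replicate 3 (triangles) is lowest for all 10 genes on the left and for 8 on the right, Klf7 and Klf9 being the exceptions.

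None of the 10 was called variable by edgeR's test of goodness of fit, which asks whether a gene's replicates differ beyond the trend for its abundance (adjusted p under 0.05 by Benjamini-Hochberg over 12577 genes). That test called 1.84% of all genes. At an unadjusted p under 0.05 it called 0 members and 6.96% of all genes, and with DESeq2 size factors it called 0 members too. The power of the test for differences as small as those of the members was not measured. The smallest unadjusted p among the members was 0.201, for Klf13, with an edgeR adjusted p of 1. The common biological coefficient of variation, the spread between libraries beyond counting, was 0.162, and 0.0906 without replicate 3. The CV of TMM-scaled CPM was 19.2% for Klf13 and 16.9% for Klf5, the highest of the family, and 3.46% for Klf9, the lowest, beside a median of 12.7% over all genes tested.

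Gene length moved with the values of replicate 3. Among genes of 1000 to 2000 nt, the median log2 difference of replicate 3 from the mean of replicates 1 and 2 was 0.09, and 29.3% of genes were lowest in replicate 3. At 2000 to 3000 nt the median was -0.02 (43.1% lowest), and at 4000 to 5000 nt it was -0.15 (59.7% lowest). Klf2 and Klf10, both under 2000 nt, had -0.36 and -0.36, and Klf9, at 4380 nt, had -0.06. After a smooth correction of each library for gene length, 8 of the 10 members were lowest in replicate 3, beside 38.9% of all genes tested. The corrected values of Klf5 were 263.7, 246.8 and 203.3 TMM-scaled CPM, and those of Klf9 174.4, 170.7 and 185.8. For members other than Klf7 and Klf9 the difference of replicate 3 was negative with and without the correction. No sample label tells replicate 3 from the others, and it had the fewest counts of the 3; the part of depth in this was not tested.

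**Figure D4:**
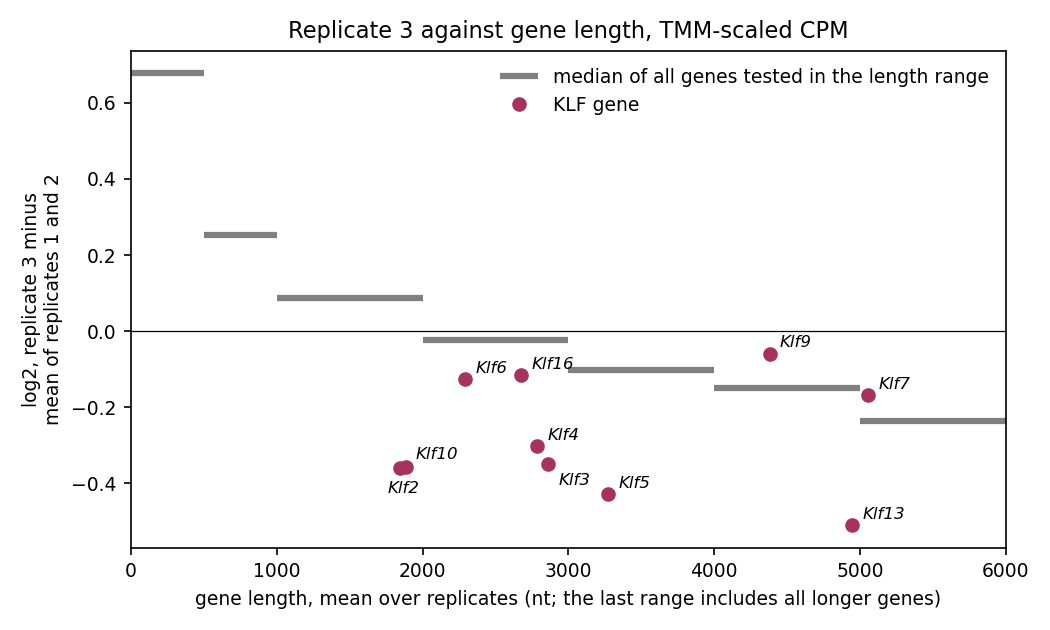
Log2 difference of TMM-scaled CPM, replicate 3 minus the mean of replicates 1 and 2, against gene length (nt), for the 10 KLF genes (points) and as the median of all genes tested in each length range (grey bars). The medians run from 0.68 under 500 nt to -0.24 from 5000 nt, and 8 of the KLF points lie below the bar of their length range, all but those of Klf7 and Klf9.

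Of the members, 4 are overlapped by other annotated genes, so their reads could be shared, and whether the counting used strand is not given in the sources used here. Of 8 such genes, C230096K16Rik, inside Klf3 on the same strand (chromosome 5, 64804014 to 64805735), had 62, 38 and 27 counts beside 1184, 619 and 401 for Klf3. On the opposite strand at the start of Klf3, Gm20033 had 1, 0 and 4 counts. Gm13748 and Mir6899 in Klf7 and Gm27252 and E030018B13Rik in Klf13 had 0 counts in every replicate. Mir1192 in Klf9 had 1, 0 and 0 counts, and Gm26649 in Klf7 had no entry among the 55487 genes. These genes were named for their position. The counts of all 10 members were whole numbers (within 0.005) in every replicate, as were those of 77.3% of genes with a mean TPM of at least 1. RSEM gives fractions where a read is divided among genes.

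Of the 7 other KLF genes, 4 had a mean TPM of at least 1, beside 44.2% of all protein-coding genes. Klf8, which like Klf3 recruits CtBP, was highest at 7.01 ± 1.78 TPM (SD, n = 3), above the means of Klf13, Klf16 and Klf7. It was followed by Klf15 at 4.60 ± 0.83, Klf11 at 3.60 ± 1.71 and Klf12 at 2.15 ± 0.45 TPM (SD, n = 3). Klf1, the erythroid factor, had 1 count in every replicate, and Klf14 had 0 counts in every replicate. Both are under a floor of 3 counts, which is 0.263, 0.464 and 0.518 CPM in replicates 1, 2 and 3. Klf17 had 4, 2 and 4 counts. The 7 genes together summed to 17.5 ± 4.50 TPM (SD, n = 3), against 149.8 ± 49.1 TPM (SD, n = 3) for the 10 members, and their median log2(TPM + 1) was 1.65 ± 0.20 (SD, n = 3).

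Sp genes encode related zinc finger proteins that bind the same GC boxes. Of the 9, 4 had a mean TPM of at least 1, near the 44.2% of all protein-coding genes. Sp1 and Sp3, the ubiquitous members, had 22.3 ± 5.60 and 19.01 ± 1.59 TPM (SD, n = 3), their means lying between those of Klf10 and Klf4. In single replicates Sp3 was below Klf4 in replicate 1 (20.81 against 22.14 TPM) and above Klf10 in replicate 3 (18.39 against 18.11 TPM). Sp2 and Sp4 had 3.60 ± 2.02 and 2.22 ± 0.27 TPM (SD, n = 3). Sp5, a known target of WNT signalling, had 1 count in every replicate. The cells were kept with an inhibitor of GSK at 3 µM, and the reason for the low Sp5 count was not tested. The median log2(TPM + 1) of the 9 was 0.54 ± 0.17 (SD, n = 3).

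**Figure D5:**
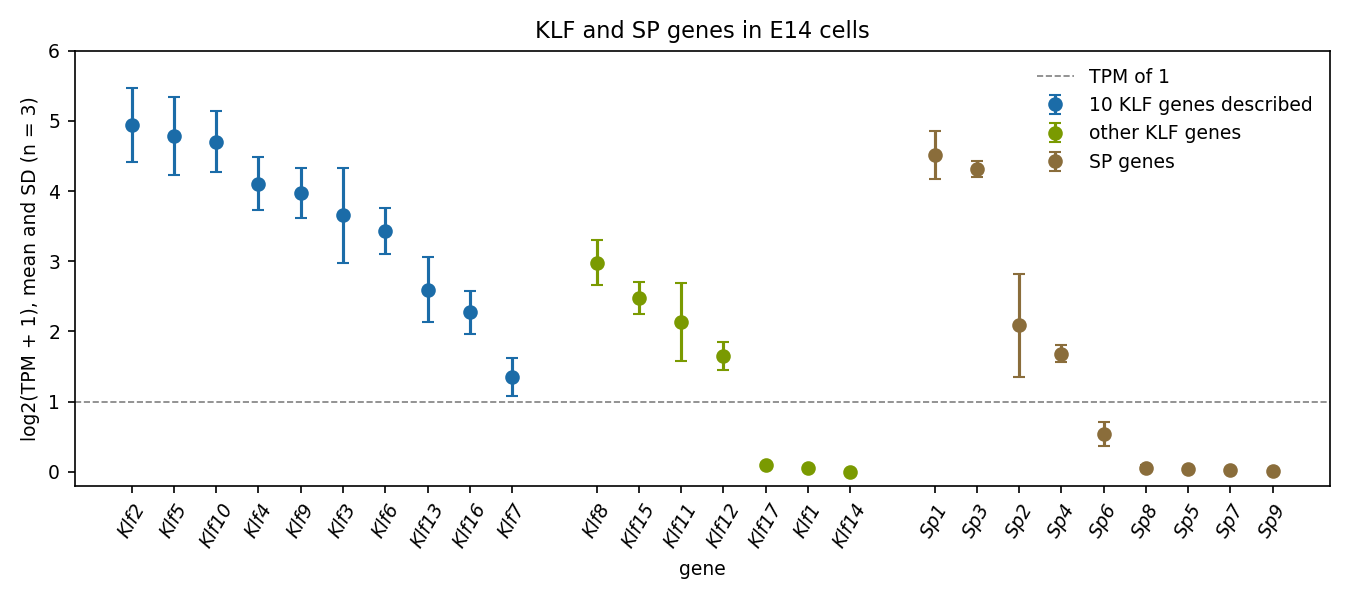
Mean log2(TPM + 1) with its SD over 3 replicates for the 10 KLF genes described, the 7 other KLF genes and the 9 SP genes; the dashed line marks a TPM of 1. All 10 described genes, 4 other KLF genes and 4 SP genes lie above the line.

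Genes for proteins that work with the KLFs were mostly expressed, by the limit that 44.2% of protein-coding genes reached. All 9 listed cofactors passed the limit of 1 TPM, with a median log2(TPM + 1) of 4.23 ± 0.31 (SD, n = 3), from Crebbp at 5.52 ± 3.11 to Sin3a at 24.4 ± 9.16 TPM (SD, n = 3). The CtBP genes Ctbp1 and Ctbp2 had 12.3 ± 2.57 and 18.2 ± 4.15 TPM (SD, n = 3). Of 6 genes for ubiquitin ligases that act on KLF proteins, 5 passed the same limit, among them Fbxw7 at 2.54 ± 0.58 and Btrc at 6.05 ± 1.42 TPM (SD, n = 3). The exception was Fbxo32, with 3, 1 and 0 counts.

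Upstream of the family, all 5 genes of the LIF and STAT3 route passed the same limit, beside 44.2% of protein-coding genes. Their median was 3.15 ± 0.28 (SD, n = 3) on the same log2 scale. The receptor subunit gene Il6st had 12.3 ± 3.87, Stat3 9.09 ± 3.08, the feedback inhibitor Socs3 8.40 ± 1.86, the LIF receptor gene Lifr 5.96 ± 2.02 and the kinase gene Jak1 5.73 ± 2.07 TPM (SD, n = 3). These are RNA levels and give no signalling activity. In the ERK5 and MEF2 route, which induces Klf2 in endothelial cells, 4 of 5 genes were expressed and Mef2c had 0 counts in every replicate. Among those 4, Mef2d had 9.8, 6.02 and 1.12 TPM, lowest in replicate 3.

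The 10 listed genes of the naive network were all above the limit, which 44.2% of protein-coding genes reached. Their median log2(TPM + 1) was 5.28 ± 0.26 (SD, n = 3). Klf2 and Klf5 were of the same order as Sox2 and Tfcp2l1, at 32.9 ± 7.08 and 30.5 ± 11.99 TPM (SD, n = 3). They lay below Nanog, at 182.8 ± 29.9 TPM (SD, n = 3). Pou5f1, Zfp42, Esrrb and Fbxo15 also had higher means, of 149.1, 68.8, 50.2 and 44.4 TPM. Sall4, Tbx3 and Prdm14 had lower means than Klf2 and Klf5, of 16.5, 16.1 and 3.44 TPM. The labelled cell type was checked against markers. All 6 embryonic stem cell markers had a mean TPM of at least 1, and so did 1 of 8 fibroblast, 0 of 5 endoderm, 0 of 4 mesoderm, 1 of 4 neural and 1 of 4 trophoblast markers, namely Thy1, Tubb3 and Tfap2c. Thy1, Tubb3 and Tfap2c had means of 2.50, 11.6 and 4.08 TPM. The lowest mean of the stem cell markers was 6.05 TPM, for Utf1, below that of Tubb3. Of the 6 stem cell markers, 5 are also in the naive network list. The fibroblast genes Col3a1, Dcn, Lum and Postn had 0 counts in every replicate, and the 8 fibroblast markers summed to 3.59, 3.71 and 1.39 TPM in replicates 1, 2 and 3. In bulk RNA, fewer cells expressing a gene and less RNA per cell cannot be told apart.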

How the data were processed

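RNA-seq of E14 cells was analysed in 3 replicates. The submitters' processing notes name STAR, RSEM and mm10, without version or role for each; annotation release and strand setting are not given in the sources used here. Per the file headers, the authors deposited an expected count (estimated count) for each gene, not normalized, with TPM and FPKM scaled by effective length; FPKM served in 1 alternative. Gene length and effective length, in nt, are other columns the authors deposited. Names, coordinates and overlaps came from GENCODE vM21 (GRCm38, the assembly of mm10), matched by Ensembl ID. The split into Klf2, Klf4 and Klf5 against the rest follows their known role.

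The members and gene lists were chosen with earlier results of these data known. So were the count of members lowest in replicate 3 and its length correction. Named genes are the 10 members and the listed genes (15 lists); genes overlapping members were added for position. Estimated counts were rounded for edgeR 4.0.16 in R 4.3.3 (filterByExpr, TMM, intercept-only design, trended dispersion, Benjamini-Hochberg). The test was tried on simulated data with larger changes than those of the members and less spread between libraries. That trial gives no power for differences as small as theirs. DESeq2 1.42.0 gave size factors for an alternative. The length correction was a lowess trend (span 0.3) of each library on log length. TPM with fixed lengths was recomputed from counts. With deposited lengths, recomputed TPM differed from the deposited values by at most 0.478%. A pseudocount of 1 was used on the log2 scale. Other steps used Python 3.11.15, pandas 2.3.3 and scipy 1.17.1. A planned comparison of KLF protein sequences was not made. Of the lists, 1 is not reported here.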

Additional observations from a re-analysis of the deposited data

How the results depend on the processing

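The 30 results were recomputed under 158 alternatives. Of these, 144 were planned and 14, those with fixed gene lengths, were chosen after seeing the data. The plan for replicate 3 and gene length drew on earlier results of these data. A change of sign was possible only for the excess of Klf2, Klf4 and Klf5 over the other members, and it kept its sign. Of the 158, 136 stayed within the limit allowed and 22 moved. For counts that limit was a fixed ratio to the main count, and for other values the SD over replicates. The excess of Klf2, Klf4 and Klf5 over the other members became 1.05 in CPM, and their share 47.0% in CPM and 45.0% of all 17 KLF genes; the unit or total differs by construction. A limit of 5 TPM left 8 of the 10 members and 9 of the 10 naive network genes, changes small enough to count as unmoved. The same limit left 1 other KLF gene, 2 SP genes, 2 ligase genes, 2 genes of the ERK5 and MEF2 route, 0 fibroblast and 0 trophoblast markers. With CPM of at least 1 there were 3 fibroblast, 1 endoderm and 2 neural markers. Short genes (effective length under 100 nt) held 63.3% of TPM; leaving them out of the denominator raised the members' means, Klf2 to 84.3, Klf5 to 75.5, Klf10 to 70.1, Klf4 to 45.0, Klf9 to 40.7, Klf3 to 33.8, Klf6 to 27.0, Klf13 to 14.2, Klf16 to 10.6 and Klf7 to 4.38 TPM, in the same order. Leaving out each replicate was run for every result but the count of members lowest in replicate 3, and the values stayed within the limits allowed; pairs ordered alike went from 7 to 9 of 9 without replicate 3. Members called variable stayed at 0 under every alternative run. No paired analysis was possible because only 1 group of the series was analysed, so shared replicate numbers pair nothing.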
